A study of Homo sapiens with 6 samples.

Results

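The genes described here encode proteins of the centrosome, taken from the table by symbol: every gene named CEP with a number, apart from symbols ending in P and digits, together with PCNT, CNTRL, NIN, NINL, ASPM, CDK5RAP2, CENPJ, STIL, SASS6 and PCM1. The rule gave 47 of the 16834 genes, 37 of them named CEP and 10 from the named list. The RNA came from 3 Flag-IPs and 3 HA-IPs of unsynchronized HEK293-T Flp-In cells, a human embryonic kidney line that carries ccTaggedRP at a single recombination site behind the CAG promoter. Every library comes from this same tagged line, and no untagged or input library is among the 6. The Flag-IPs captured RNA bound to Flag-RPL10a-hCdt, a mouse ribosomal protein fused to a fragment of human CDT1. The paper describes this fusion as degraded from late S phase on, in G2 and M. The HA-IPs captured RNA bound to HA-RPL10a-hGem, fused to a fragment of human geminin that is degraded from late mitosis through G1 phase. The paper itself gives late G1 to early S phase for the loss of this geminin fusion. It expects Flag to be enriched in G0/G1 and HA in G2-M. Its estimate for ideal degrons places Flag in G1 and S phase and HA in S, G2 and M phase, so S phase is shared there. The comparison asks whether transcripts for centrosome proteins were higher with the HA tag than with the Flag tag. The labels do not say whether replicates came from separate cultures, so p-values measure the spread between these libraries, which may be technical.

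The centrosome is the main microtubule organizing center of animal cells and holds a pair of centrioles inside a protein matrix, the pericentriolar material. Centrioles duplicate in each cycle: the kinase PLK4 acts with STIL and SASS6 to start a cartwheel in S phase, and CENPJ elongates the new centriole. Before mitosis the pericentriolar material grows on scaffolds such as CEP192, CDK5RAP2 and PCNT. In cells that leave the cycle the older centriole, by way of its appendages, becomes the base of a cilium.

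The libraries held 23174532 to 44134833 reads on the listed genes, of which 82189 to 166147 fell on the 47 genes. Levels are normalized counts, the reads of a gene divided by a size factor for its library. HA-IP replicate 3 stood apart from the other HA-IPs in genes of heart muscle, a tissue the labels do not name. The 19 heart muscle marker genes in the table, of 25 listed, summed to 73176 to 157156 normalized counts in the Flag-IPs, to 2827 and 1823 in HA-IP replicates 1 and 2, and to 14927 in HA-IP replicate 3. All 19 were called higher in the Flag-IPs. Of the other marker genes in the table, 5 of 7 fibroblast genes, 3 of 4 endothelial genes and 1 blood gene were called higher in the Flag-IPs, and 1 fibroblast gene was called higher in the HA-IPs. The part of these signals in the results below was not tested. All 10 markers of epithelium and kidney lineage were in the table, from VIM with mean normalized counts of 24992 in the Flag-IPs against 24531 in the HA-IPs down to PAX8, a kidney lineage factor, with 35.4 and 2.79. Of these 10, the epithelial adhesion genes EPCAM and CDH1 were called higher in the HA-IPs (log2 fold changes 0.34 and 0.29, limma adjusted p = 0.0029 and 0.017) and PAX2 and PAX8 were called higher in the Flag-IPs.

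Of the 47 genes, 6 passed as higher in the HA-IPs and 0 as higher in the Flag-IPs, at a Benjamini-Hochberg adjusted p of at most 0.05 over all genes in limma. They were CEP192, ASPM, CENPJ, CEP290, STIL and CEP350. The 6 make up 12.8% of the members, against 5.79% of all genes called higher in the HA-IPs and 7.1% called higher in the Flag-IPs. The differences were small, from 13.0% to 22.1% in the means. In these bulk libraries a change in the share of cells that hold a tag and a change in RNA per cell cannot be told apart. At an unadjusted p under 0.05, 11 members had a positive difference, against 13.3% of all genes, and 0 a negative one, against 13.9%. Of the other tools, edgeR and DESeq2 each called the same 6 as limma, against 5.35% and 6.2% of all genes higher in the HA-IPs, and 0 in the other direction. With replicate numbers as a block 5 were called, against 4.47%. Of the 47 log2 fold changes 35 were positive, against 49% of all genes, and their median was 0.066, against -0.0049 over all genes. All 3 HA-IPs lay above all 3 Flag-IPs in 16 members, and all 3 Flag-IPs lay above in 2, where each pattern held for 16.1% of all genes. The members' share of all normalized counts was 0.355%, 0.369% and 0.377% in Flag-IP replicates 1, 2 and 3, and 0.376%, 0.379% and 0.380% in HA-IP replicates 1, 2 and 3, so that Flag-IP replicate 1 was lowest and Flag-IP replicate 3 lay among the HA-IPs. The number called changed when a single library was left out. It was 0 without Flag-IP replicate 2, where 0.612% of all genes were called in that direction, and 7 members were higher at an unadjusted p under 0.05, against 9.44% of all genes. With Flag-IP replicate 1 left out 4 members were called, against 5.19% of all genes, and with Flag-IP replicate 3 left out 8, against 9.21%. When HA-IP replicates 1, 2 and 3 were dropped in turn, 2, 1 and 1 members were called, against 1.34%, 1.59% and 1.89% of all genes. The members' count thus moved with the count over the whole table. With all libraries brought to an equal total, CEP192 and ASPM alone passed, against 2.8% of all genes, and over all genes the share of calls that were higher in the HA-IPs went from 44.9% to 23.0%.

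**Figure D1:**
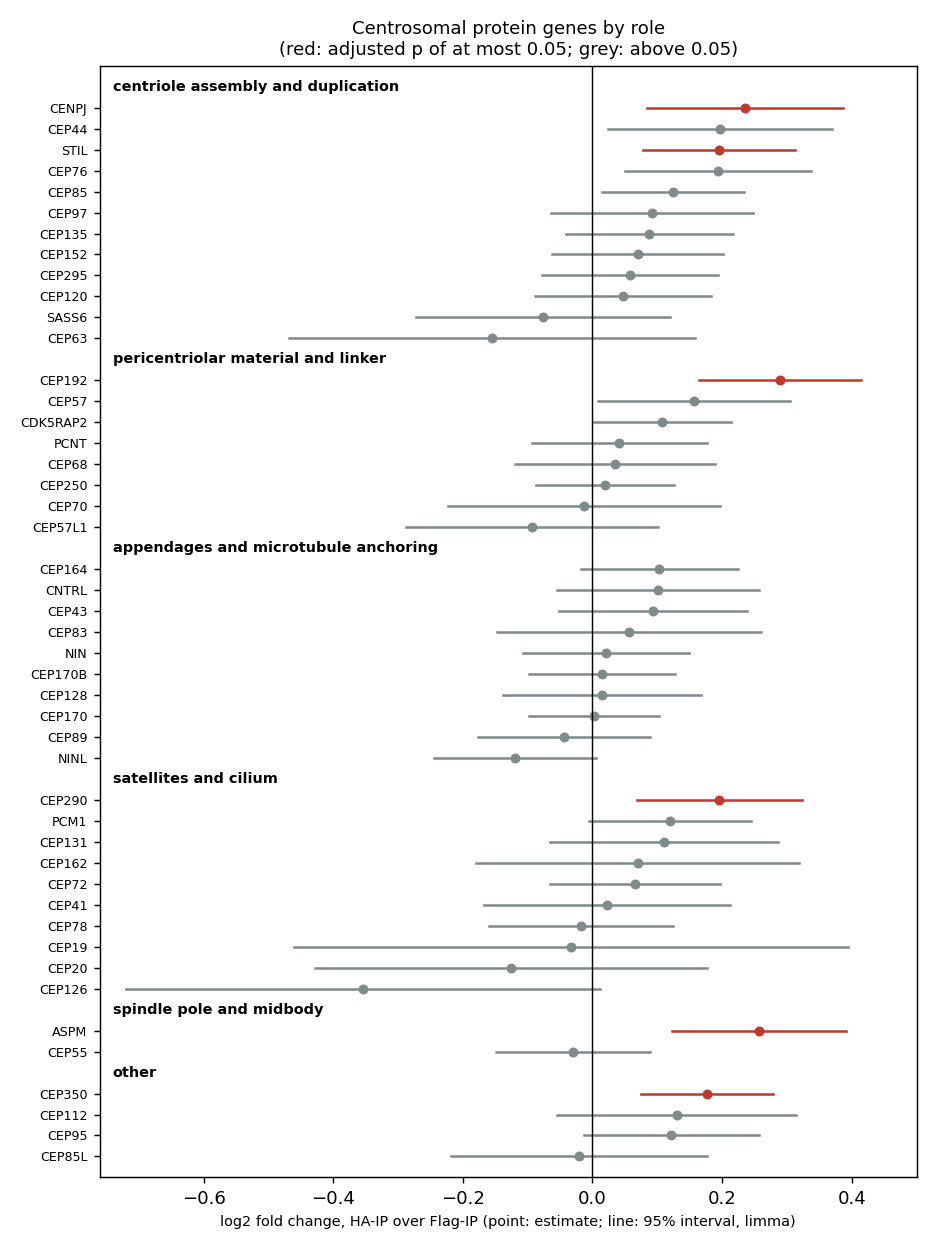
Log2 fold change between HA-IPs and Flag-IPs, positive when higher in the HA-IPs (horizontal axis) for 46 of the 47 genes (vertical axis, grouped by role), with the limma estimate as a point and its 95% interval as a line. The 6 red genes passed an adjusted p of 0.05 and all lie to the right of 0, up to 0.29 for CEP192, while intervals widen for genes with few reads such as CEP19 and CEP126.

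CEP192 is a scaffold of the pericentriolar material that recruits PLK4 and Aurora A, and it showed the largest fold change of the 47. It lies on chromosome 18 from 12991362 to 13125052 on the plus strand of GRCh38. Its level was 5158, 5021 and 5710 normalized counts for Flag-IP replicates 1, 2 and 3, against 6298, 6379 and 6723 in HA-IP replicates 1, 2 and 3. Every HA-IP was higher than every Flag-IP, and Flag-IP replicate 3 was the closest to the HA-IPs. The log2 fold change was 0.29 (standard error, SE, 0.057, limma adjusted p = 0.0085). CEP192 passed the threshold in 5 of the 6 fits that leave out 1 library, the exception being the fit without Flag-IP replicate 2.

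ASPM gathers microtubule minus ends at spindle poles in mitosis and had the highest level per length of the 6, at 1031 normalized counts per kb of transcript. It lies on chromosome 1 from 197084121 to 197146694 on the minus strand. Its normalized counts were 9375, 10356 and 10903 in Flag-IP replicates 1, 2 and 3, and 11531, 12514 and 12523 in HA-IP replicates 1, 2 and 3. The groups did not overlap, with Flag-IP replicate 1 lowest. The log2 fold change was 0.26 (SE 0.061, limma adjusted p = 0.019). It passed in 3 of the 6 fits that leave out 1 library, and not without Flag-IP replicate 2 or HA-IP replicate 2 or 3.

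CENPJ and STIL act in the assembly of the new centriole. CENPJ (chromosome 13, 24882279 to 24922889, minus strand) had 1445, 1442 and 1521 normalized counts in the Flag-IPs against 1673, 1614 and 1915 in the HA-IPs. The groups did not overlap, and HA-IP replicate 3 stood above the other 5 libraries. Its log2 fold change was 0.24 (SE 0.069, limma adjusted p = 0.046) and fell to 0.16 without that library. STIL (chromosome 1, 47250139 to 47314892, minus strand), which recruits SASS6 to the cartwheel, had 2278, 2126 and 2270 normalized counts in the Flag-IPs against 2557, 2453 and 2630 in the HA-IPs. The spread within each group was under the gap between the group means, at 2224 ± 85.7 and 2547 ± 88.8 (SD, n = 3 each). The log2 fold change of STIL was 0.20 (SE 0.054, limma adjusted p = 0.036). With 1 library left out, CENPJ passed in 1 of 6 fits, the one without Flag-IP replicate 3, and STIL in 2, those without Flag-IP replicate 1 or 3.

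CEP290 is a protein of the ciliary transition zone and of centriolar satellites, the granules around the centrosome. It lies on chromosome 12 from 88049016 to 88142099 on the minus strand. CEP290 had 2318, 2286 and 2531 normalized counts in the Flag-IPs against 2626, 2853 and 2689 in the HA-IPs. The groups did not overlap, though the highest Flag-IP, replicate 3, came near the lowest HA-IP, replicate 1. Its log2 fold change was 0.20 (SE 0.058, limma adjusted p = 0.047), and of the 6 fits that leave out 1 library it passed in 1, without Flag-IP replicate 3. In CEP290, 5.10% of the exon bases also lie in exons of C12orf29 on the opposite strand, so reads there cannot be told apart without strand. CEP350 is a large protein that stabilizes centriolar microtubules (chromosome 1, 179954674 to 180114880, plus strand). It had 5105, 5079 and 5386 normalized counts in the Flag-IPs against 5759, 5938 and 5904 in the HA-IPs, with no overlap. Its log2 fold change was 0.18 (SE 0.046, limma adjusted p = 0.029), and it passed in 2 of 6 such fits, without Flag-IP replicate 1 or 3.

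**Figure D2:**
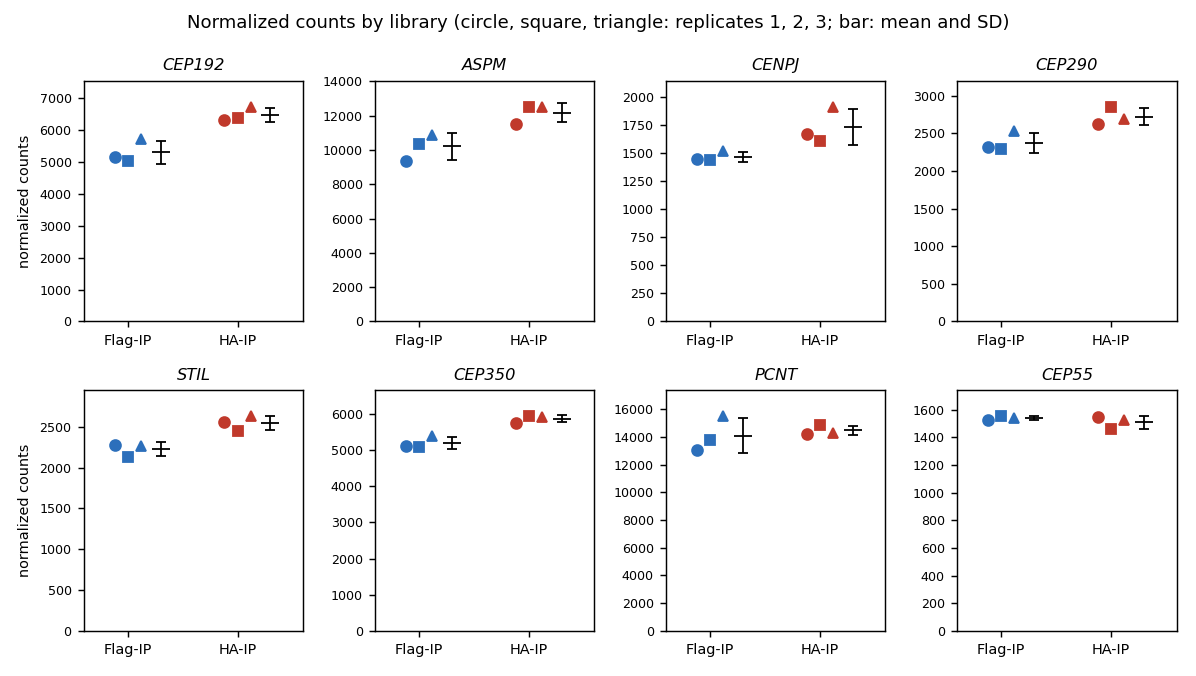
Normalized counts (vertical axes, from 0) in each library of the 6 called genes and of PCNT and CEP55, with replicates 1, 2 and 3 as circle, square and triangle, Flag-IPs in blue and HA-IPs in red, and black bars for the mean and SD (n = 3). The 6 called genes show no overlap between groups, and in PCNT and CEP55 the groups overlap.

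The promoters of CEP192, ASPM and STIL are shown beside that of CEP55, a midbody gene that did not pass the test, since many genes expressed in G2 and M carry a cell cycle genes homology region (CHR) and a CCAAT box near the start site. Each sequence runs from 250 bases before to 50 bases after a RefSeq start site on the strand of the gene (GRCh38.p14), at chr18:12991112-12991411 for CEP192, chr1:197146620-197146919 for ASPM, chr1:47314098-47314397 for STIL and chr10:93496362-93496661 for CEP55. Capitals mark the CHR core TTTGAA and the CCAAT box, searched on both strands, so that TTCAAA and ATTGG are matches too. No matches overlap each other.
CEP192: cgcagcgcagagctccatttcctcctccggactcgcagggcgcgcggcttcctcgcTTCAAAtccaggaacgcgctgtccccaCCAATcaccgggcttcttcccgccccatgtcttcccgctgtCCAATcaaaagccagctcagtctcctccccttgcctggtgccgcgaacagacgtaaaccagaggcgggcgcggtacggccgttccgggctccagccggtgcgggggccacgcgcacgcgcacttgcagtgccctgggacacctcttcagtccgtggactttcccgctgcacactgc
ASPM: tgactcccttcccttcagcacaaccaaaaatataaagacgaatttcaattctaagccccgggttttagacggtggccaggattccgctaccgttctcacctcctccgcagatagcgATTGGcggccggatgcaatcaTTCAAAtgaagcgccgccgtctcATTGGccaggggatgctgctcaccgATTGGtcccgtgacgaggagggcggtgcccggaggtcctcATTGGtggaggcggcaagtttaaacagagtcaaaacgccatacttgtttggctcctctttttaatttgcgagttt
STIL: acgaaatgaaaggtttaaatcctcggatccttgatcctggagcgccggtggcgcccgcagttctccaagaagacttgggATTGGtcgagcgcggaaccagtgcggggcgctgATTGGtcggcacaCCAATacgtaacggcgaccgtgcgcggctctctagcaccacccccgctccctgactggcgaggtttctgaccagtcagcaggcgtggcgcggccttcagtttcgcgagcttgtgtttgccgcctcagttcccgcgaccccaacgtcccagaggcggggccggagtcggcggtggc
CEP55: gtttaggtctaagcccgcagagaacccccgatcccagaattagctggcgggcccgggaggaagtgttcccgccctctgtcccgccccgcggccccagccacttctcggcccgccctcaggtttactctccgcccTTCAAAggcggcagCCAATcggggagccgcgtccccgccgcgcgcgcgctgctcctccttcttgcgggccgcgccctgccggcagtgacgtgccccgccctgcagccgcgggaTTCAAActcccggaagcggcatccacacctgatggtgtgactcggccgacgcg
The ASPM window holds 1 CHR core and 4 CCAAT boxes, that of CEP192 holds 1 and 2, and that of STIL holds 0 and 3. CEP55 holds 2 and 1, so the letters are present in a gene whose groups overlapped as well as in genes called higher in the HA-IPs. RefSeq windows were matched for 41 of the 47 genes, in 52 windows. The CHR core was found in 17 of the 52 (32.7%), against 15.2% of the 35116 windows of all genes, and the CCAAT box in 25 of the 52 (48.1%), against 34.6%. Counted by gene, the CHR core was found in 16 of the 41 members with a window and the CCAAT box in 22. Among the called genes with a window, CENPJ being without one, the CHR core was found in 3 of 5 (ASPM, CEP192 and CEP290) and the CCAAT box in 3 of 5 (ASPM, CEP192 and STIL). These counts of genes are not comparable with the shares of windows, and 5 genes are too few to set the called genes apart.

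In the group for centriole assembly and duplication, 2 of 12 passed as higher in the HA-IPs and 0 as higher in the Flag-IPs. The shares of all genes were 5.79% and 7.1%, and differences between role groups were not tested. The median log2 fold change of the 12 genes was 0.090. Besides CENPJ and STIL, the estimates were highest for CEP44, which helps turn a new centriole into a centrosome, and CEP76, which limits reduplication. CEP44 had 564, 537 and 517 normalized counts in the Flag-IPs against 647, 574 and 635 in the HA-IPs (log2 fold change 0.20, limma adjusted p = 0.13). CEP76 had 736, 741 and 779 in the Flag-IPs against 887, 833 and 862 in the HA-IPs (log2 fold change 0.19, limma adjusted p = 0.077). Both genes had no overlap between the groups yet did not pass. In CEP76, 14.3% of the exon bases lie in exons of PSMG2 on the opposite strand. CEP85, an antagonist of the kinase NEK2 with the highest mean of this group, had 2487 ± 70.4 normalized counts in the Flag-IPs against 2711 ± 59.8 in the HA-IPs (SD, n = 3 each, log2 fold change 0.12, limma adjusted p = 0.13). CEP152, the platform on which PLK4 is loaded, had 1425 ± 61.6 and 1496 ± 62.4 (SD, n = 3 each), and its interval ran from -0.06 to 0.20 on the log2 scale. SASS6, the cartwheel protein, had 883, 700 and 729 normalized counts in the Flag-IPs against 705, 754 and 723 in the HA-IPs, so that a single high Flag-IP, replicate 1, set the sign of its log2 fold change of -0.08 (limma adjusted p = 0.64). Without that library the value was 0.026. CEP63, which brings CEP152 to the centriole, had the lowest estimate of the group at -0.16 (limma adjusted p = 0.54), and 23.4% of its exon bases lie in exons of another gene on the same strand.

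Among the 8 genes of the pericentriolar material and of the linker that holds centrosomes together, CEP192 was the only gene called. Calls over all genes were 5.79% higher in the HA-IPs and 7.1% higher in the Flag-IPs. PCNT, the pericentrin scaffold, had the highest level of all 47 genes per length, at 1357 normalized counts per kb of transcript. Its normalized counts were 13032, 13755 and 15490 in the Flag-IPs against 14236, 14863 and 14310 in the HA-IPs. The HA-IPs lay inside the range of the Flag-IPs, and the interval of the difference ran from -0.09 to 0.18 on the log2 scale. CDK5RAP2, which anchors gamma-tubulin complexes, had 4978, 5106 and 5370 in the Flag-IPs against 5541, 5669 and 5438 in the HA-IPs. Its groups did not overlap, and its log2 fold change of 0.11 did not pass (limma adjusted p = 0.17). CEP250, the C-NAP1 protein of the linker, had 3995 ± 131 and 4047 ± 110 normalized counts in the Flag-IPs and HA-IPs (SD, n = 3 each), with an interval from -0.09 to 0.13. CEP57L1, a paralog of CEP57 whose reads could be split with it, had the lowest estimate of the group at -0.09 (limma adjusted p = 0.55).

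None of the 10 genes for centriole appendages and microtubule anchoring was called by limma, edgeR or DESeq2, and 0 had an unadjusted p under 0.05 in limma. For all genes, limma called 5.79% higher in the HA-IPs and 7.1% higher in the Flag-IPs. At an unadjusted p under 0.05 these shares were 13.3% and 13.9%. A count of 0 in only 10 genes therefore does not set this group apart. The median log2 fold change of the 10 genes was 0.018. NIN, which anchors microtubules at subdistal appendages, had 5692, 6292 and 6363 normalized counts in the Flag-IPs against 5834, 6430 and 6351 in the HA-IPs, and the groups lay over each other. CEP164, a distal appendage protein needed for cilium formation, had the highest estimate, with 1563 ± 34.2 normalized counts in the Flag-IPs against 1680 ± 63.7 in the HA-IPs (SD, n = 3 each, log2 fold change 0.10, limma adjusted p = 0.26). NINL, a ninein-like protein, had the lowest, with 1245, 1262 and 1196 in the Flag-IPs against 1118, 1147 and 1143 in the HA-IPs. All Flag-IPs of NINL lay above all HA-IPs, and the log2 fold change of -0.12 did not pass (limma adjusted p = 0.21). CEP170 and CEP170B, paralogs with transcript GC contents of 40.7% and 66.3%, had log2 fold changes of 0.0030 and 0.015. Their intervals ran from -0.10 to 0.10 and from -0.10 to 0.13. Whether the paralogs shared any reads was not tested.

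Of the 11 genes for satellites and the cilium, CEP290 was the only gene called, and 7 had a positive log2 fold change. In the whole table, limma calls made up 5.79% toward the HA-IPs and 7.1% toward the Flag-IPs, and 49% of log2 fold changes were positive. With only 11 genes, these counts do not set the group apart. PCM1, the scaffold of the satellites, had 8970, 9214 and 10272 normalized counts in the Flag-IPs against 10169, 10048 and 10649 in the HA-IPs. Flag-IP replicate 3 lay within the range of the HA-IPs, and the log2 fold change of 0.12 did not pass (limma adjusted p = 0.20). CEP126, a satellite protein with the lowest level per length of the 47 genes (13.1 normalized counts per kb), had the lowest fold change of all. Its normalized counts were 113, 112 and 87.6 in the Flag-IPs against 81.1, 78.2 and 82.7 in the HA-IPs. The groups did not overlap, and the log2 fold change of -0.35 had an interval from -0.72 to 0.01 (limma adjusted p = 0.20). CEP20, a small protein of satellites and cilia, had 726, 489 and 476 normalized counts in the Flag-IPs against 482, 515 and 524 in the HA-IPs. A single library, Flag-IP replicate 1, lay well above the other 5.

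The pair that acts at the spindle pole and the midbody split. ASPM was called higher in the HA-IPs, while CEP55, which recruits the machinery that cuts the last bridge between daughter cells, had 1527, 1552 and 1540 normalized counts in the Flag-IPs against 1545, 1457 and 1525 in the HA-IPs. The log2 fold change of CEP55 was -0.03, with an interval from -0.15 to 0.09 (limma adjusted p = 0.78). The difference between ASPM and CEP55 was not tested. Of the 4 genes in no group, CEP350 was called, CEP95 and CEP112 had log2 fold changes of 0.12 and 0.13 (limma adjusted p = 0.23 and 0.36), and CEP85L, a paralog of CEP85, had -0.02 with an interval from -0.22 to 0.18.

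The called genes were among the members with more reads. Of the 16 members with the highest means (2296 to 14281 normalized counts) 5 were called, of the next 16 (821 to 1704) 1 was called, and of the 15 lowest (65.2 to 807) 0 were called. In the lowest 15, the median width of the interval on either side of the estimate was 0.20 on the log2 scale, about the fold change of STIL and CEP290. That interval is not adjusted for the number of genes, and CEP44, among these 15, had a log2 fold change of 0.20 and did not pass. In the highest 16 it was 0.12. The median log2 fold change also fell with level, at 0.11, 0.068 and -0.013 in the highest 16, the next 16 and the lowest 15. Spearman's rho between log2 fold change and mean level was 0.37 for the 47 members, against 0.24 for 13812 other protein-coding genes. Shares called by level over the whole table are not given here. Whether precision or this trend set the counts of calls was not tested.

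Members were long genes. Their canonical transcripts had a median length of 5673 bases, against 3411 over protein-coding genes, with a median coding length of 2958 against 1431 bases, 19 against 9 exons and a GC content of 41.3% against 48.9%. Among other protein-coding genes the median log2 fold change went from -0.098 in the 3148 with transcripts under 2 kb to 0.066 in the 1278 with 8 kb or more, and the share called higher in the HA-IPs went from 2.00% to 11.5%. No member was under 2 kb. In the bands of 2 to 4, 4 to 6, 6 to 8 and 8 or more kb the 13, 13, 11 and 10 members had median log2 fold changes of 0.066, 0.070, 0.090 and 0.050, against 0.0073, 0.034, 0.057 and 0.066 for the other genes. Within the members, Spearman's rho between log2 fold change and transcript length was 0.050 (n = 47 genes of the same 6 libraries), against 0.23 over 13812 other protein-coding genes. Once the dependence on GC content and transcript length had been taken out of each library, the median log2 fold change of the members was 0.034, and 4 of 47 passed as higher in the HA-IPs, against 6.91% of all genes in that fit, and 0 higher in the Flag-IPs, against 7.95%. CEP192, ASPM and STIL still passed (limma adjusted p = 0.011, 0.044 and 0.045) and CEP44 now did (adjusted p = 0.043). CENPJ, CEP350 and CEP290 no longer passed (limma adjusted p = 0.061, 0.079 and 0.086), with log2 fold changes of 0.19, 0.12 and 0.19, against 0.24, 0.18 and 0.20 before. With the replicate block added to this fit CENPJ passed (adjusted p = 0.038) and CEP44 did not (adjusted p = 0.071).

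**Figure D3:**
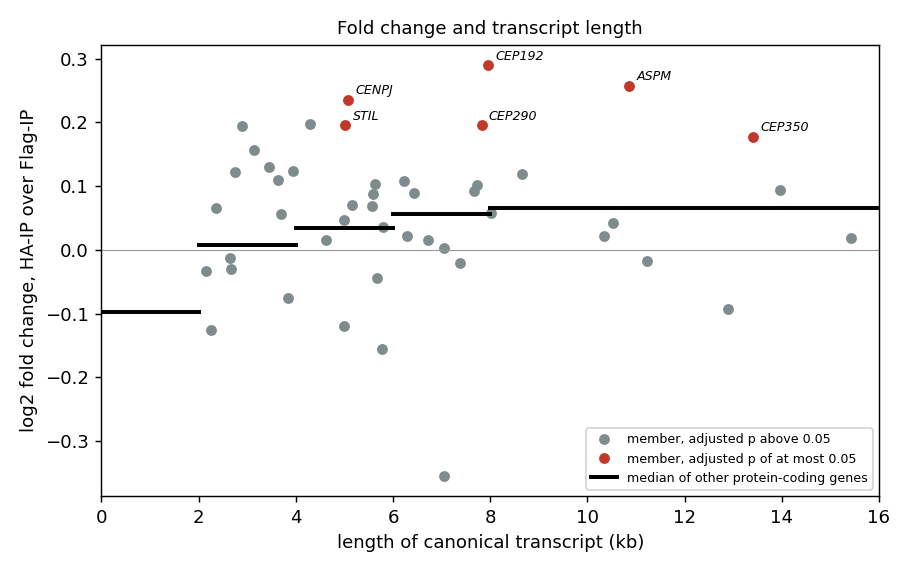
Log2 fold change between HA-IPs and Flag-IPs, positive when higher in the HA-IPs (vertical axis) against the length of the canonical transcript in kb (horizontal axis) for the 47 genes, red where called, with black bars for the median of other protein-coding genes in each length band. The bars climb from -0.098 under 2 kb to 0.066 at 8 kb or more, and the 6 called genes, all with transcripts of over 5 kb, lie above them.

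The other genes of the pathway were taken from a list of 62 genes set by role. Of these, 5 passed as higher in the HA-IPs and 4 as higher in the Flag-IPs, against 5.79% and 7.1% of all genes, and the median log2 fold change was 0.073. The 5 were CLASP2 and CKAP5, which act on microtubule plus ends and growth, RTTN, a centriole elongation factor, and KIAA0586 and MIB1, a ciliary protein and a ubiquitin ligase of the satellites. CLASP2 had 3997 ± 144 normalized counts in the Flag-IPs against 4907 ± 235 in the HA-IPs (SD, n = 3 each, log2 fold change 0.30, limma adjusted p = 0.0054) and passed in all 6 fits that leave out 1 library. CKAP5, RTTN, KIAA0586 and MIB1 had log2 fold changes of 0.26, 0.24, 0.23 and 0.22 (limma adjusted p = 0.024, 0.037, 0.022 and 0.015) and passed in 2, 2, 2 and 3 of these fits. All 4 passed without Flag-IP replicate 1 or 3, and MIB1 also without HA-IP replicate 3.

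The 4 partners called higher in the Flag-IPs included TUBG1 and TUBG2, the gamma-tubulins that nucleate microtubules, and SDCCAG8, a protein of satellites and cilia. TUBG1 had 3986, 3708 and 3792 normalized counts in the Flag-IPs against 3120, 3314 and 3374 in the HA-IPs (log2 fold change -0.23, limma adjusted p = 0.017). TUBG2 had 691, 625 and 469 in the Flag-IPs against 350, 397 and 393 in the HA-IPs (log2 fold change -0.63, limma adjusted p = 0.00998). Neither gene overlapped between groups, and being close paralogs they may share reads. SDCCAG8 had a log2 fold change of -0.28 (limma adjusted p = 0.037), and some of its reads may come from exons on the opposite strand. PLK4, the kinase that starts duplication, had 1178, 1203 and 1118 normalized counts in the Flag-IPs against 1264, 1086 and 1241 in the HA-IPs. Its groups overlapped, with an interval from -0.12 to 0.19 on the log2 scale. Of the 9 partners called, 1 still passed without Flag-IP replicate 2, 1 without HA-IP replicate 1, 2 without HA-IP replicate 2 and 4 without HA-IP replicate 3. Without Flag-IP replicates 1 and 3, 9 and 8 of the 9 still passed.

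Lists of other mitotic genes were set beside the members. Of 34 kinesin motor genes 6 passed as higher in the HA-IPs and 2 as higher in the Flag-IPs, with a median log2 fold change of 0.10 and a median transcript length of 6062 bases. Of 39 kinetochore and spindle checkpoint genes 6 and 3 were called, with a median of 0.025 and a length of 2809 bases. The share of the 47 centrosomal genes called higher in the HA-IPs, 12.8%, was below that of kinesins (17.6%) and of kinetochore genes (15.4%), and the differences between the lists were not tested. After the removal of trends with GC content and length the medians were 0.034 for the centrosomal genes, 0.053 for kinesins and 0.076 for kinetochore genes. In that fit 6 kinesin genes passed as higher in the HA-IPs and 3 as higher in the Flag-IPs. The counts were 8 and 2 for kinetochore genes and 4 and 0 for centrosomal genes, against 6.91% and 7.95% of all genes.

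**Figure D4:**
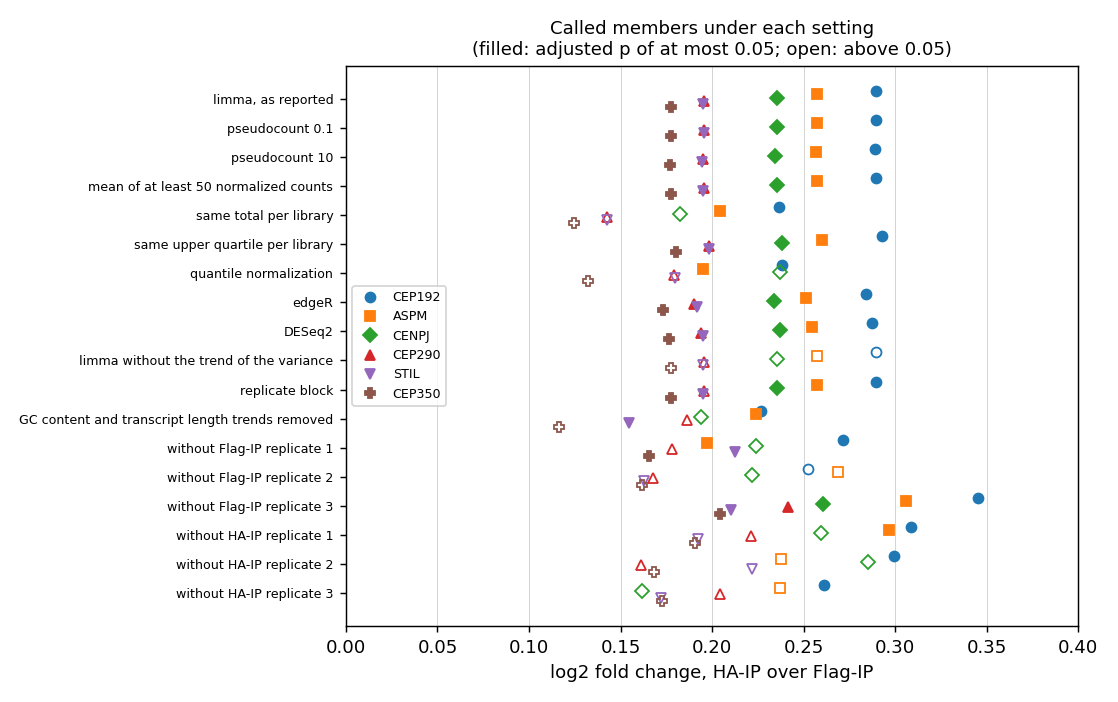
Log2 fold change (horizontal axis) of the 6 called genes under settings of the comparison (vertical axis), filled where the adjusted p is at most 0.05 and open where it is above. All values stay above 0, and CEP192 is filled in 5 of the 6 settings that leave out 1 library, while 0 of the 6 genes is filled in limma with no variance trend or without Flag-IP replicate 2. Over all genes, 6 and 103 were called higher in the HA-IPs with no variance trend and without Flag-IP replicate 2.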

How the data were processed

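Libraries of polyadenylated RNA from 3 Flag-IPs and 3 HA-IPs were read from both ends (150 bp). The authors used Trimmomatic 0.36 for trimming and STAR 2.5.2b for alignment to GRCh38, and, per the submitters' processing notes, counted reads per gene with featureCounts of Subread 1.5.2. The strand setting is not given in the sources used here. The authors deposited a normalized signal per library, the read count divided by a DESeq2 size factor. The table also holds the authors' own fold changes and adjusted p-values, which were not used. Reads were recovered as whole multiples of 1 step per library, and 100% of values came out whole within 0.01 of a read.

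Groups followed the sample titles. The groups were compared across all 16834 genes in limma 3.58.1 (R 4.3.3) after adding a pseudocount of 1 and taking log2, letting the prior variance follow mean expression, in two-sided tests with the Benjamini-Hochberg adjustment. Fold changes keep the pseudocount and so come out too small for genes with few reads. Positive values are higher in the HA-IPs. edgeR 4.0.16 (quasi-likelihood) and DESeq2 1.42.0 on recovered reads were alternatives, since the deposited values are not raw counts. Further alternatives changed the pseudocount, the filter on low values, the normalization, the variance trend, the threshold, the libraries and the replicate block, or removed trends with GC content and length (natural splines with 5 degrees of freedom, robust regression, MASS 7.3.60.0.1). Length, GC content, exons and shared exon bases came from canonical transcripts of GENCODE release 44 on GRCh38, matched by Ensembl identifier for 16683 genes. Per-gene tests were tested on simulated data.

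Members and lists were chosen with earlier results of these data known. Named genes are the members past the threshold, the members with the highest mean and the largest and smallest fold change in each role group, partners past the threshold, and ASPM, CEP55, CEP152, CEP192, CENPJ, SASS6, STIL, PCNT, CDK5RAP2, PCM1, CEP290 and PLK4. CEP19, CEP20, CEP44, CEP57, CEP76, CEP95, CEP112, CEP170, CEP170B and CEP250 were named after their values were seen. Values of a few genes are not reported here. Libraries held 23174532 to 44134833 reads, and precision is set by the spread between 3 replicates and, for low genes, by counting. Plots were drawn with matplotlib 3.10.9 in Python 3.11.15.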

Additional observations from a re-analysis of the deposited data

How the results depend on the processing

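Over all genes 2171 passed as reported. That count was 188 without the variance trend, 704 at an adjusted p of at most 0.01 and 620 to 3059 with 1 library left out. The 6 centrosomal genes called higher in the HA-IPs became 2 with libraries scaled to the same total, 2 after quantile normalization, 0 without the variance trend (limma, with 9 higher and 1 lower at an unadjusted p under 0.05), 1 at an adjusted p of at most 0.01, 4 with GC content and length trends removed, 4 with that and the replicate block, and 0 to 8 with 1 library left out. No centrosomal gene was called higher in the Flag-IPs under any of these settings. Over all genes, calls higher in the HA-IPs went from 975 to 471 at the same total, 704 after quantile normalization and 6 without the variance trend. They were 1153 with GC content and length trends removed, 1098 with the block added, and 103 to 1550 with 1 library left out. The count in that direction at an adjusted p of at most 0.01 is not given here. The 9 partner calls became 0 without the variance trend, 2 at an adjusted p of at most 0.01 and 1 to 13 with 1 library left out. The median log2 fold change of the 47 genes, 0.066, became 0.013 at the same total, where the median of all genes was -0.057, 0.034 with GC content and length trends removed, with or without the replicate block, and 0.038 to 0.091 with 1 library left out. Estimates near 0 changed sign. PCNT was -0.011 at the same total, -0.059 after quantile normalization and -0.010 with GC content and length trends removed, with or without the block. NIN was -0.032, -0.038 and -0.044 under the same settings. CEP85L was 0.035 after quantile normalization and PLK4 was -0.018 at the same total. With 1 library left out the values ran from -0.013 to 0.11 for PCNT, -0.030 to 0.065 for NIN, -0.11 to 0.022 for CEP85L, -0.0058 to 0.10 for PLK4 and -0.14 to 0.026 for SASS6. Over the 30 named genes and all alternatives, 451 values kept direction and side of the threshold, 101 lost the threshold, 1 gained it and 17 changed sign. Only the 6 called members and 9 called partners could lose the threshold. The 451 include values of genes that were not called as reported. The cause of these changes was not tested. Replicate numbers showed no clear pairing: deviations from the group means correlated at -0.156, 0.031 and -0.310 for numbers 1, 2 and 3 over 13141 genes. The highest value, 0.302, was for Flag-IP replicate 1 with HA-IP replicate 3. With 3 libraries per group these correlations depend on one another, so they cannot exclude shared cultures. With the replicate block 1662 genes and 5 centrosomal genes were called, CEP290 being lost. The spread between 3 libraries limits all values, and genes with few reads most.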
